A study of Sus scrofa with 4 samples.

Results

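Smooth muscle and pericyte genes were examined in messenger RNA of pig (Sus scrofa) ovaries taken in diestrus. The genes were chosen by symbol from a list of 34, of which 27 encode the contractile apparatus and its control and 7 are used as pericyte genes. By the symbol column 32 of the 34 were found among the 22309 genes of the deposited table, 25 contractile and 7 pericyte, and all 32 had counts high enough to be tested. TPM2 and SYNM had no symbol in the table; their rows were found through the gene identifier and through the description synemin, and their values are given apart and not counted. There were 2 wild type (WT) samples and 2 samples of leptin overexpression. The overexpressing animals were second-generation females descending from males re-cloned from the transgenic pig C013 and crossed with Duroc/Landrace/Yorkshire sows; the origin of the WT animals was not analysed here. Neither the promoter driving the transgene, nor the ages at sampling, nor whether each sample came from its own animal is given in the sources used here, so the p-values cover no more than the variation among these samples, and part of it may be technical.

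Smooth muscle contracts when calcium and calmodulin switch on myosin light chain kinase, which phosphorylates the regulatory light chain so that smooth muscle myosin can pull on actin; a phosphatase reverses this. Myocardin, bound to serum response factor, is the main transcriptional activator of these genes. In the ovary such cells form the walls of arteries and the contractile outer layer around follicles, while pericytes wrap capillaries, including the dense capillary bed of the corpus luteum, and share part of the programme. Since whole ovary was sequenced, fewer cells of a type and less RNA per cell cannot be told apart in any of the differences below.

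Library totals ran from 16493113 to 16797511 counts. Leptin (LEP), the overexpressed gene, was read 0 and 3 times with WT, and 55 and 124 times with leptin overexpression, which follows the labels. The factors that scale the libraries by the trimmed mean of M-values (TMM) were 1.34 and 0.998 in WT, against 0.925 and 0.809 with leptin overexpression, so CPM (counts scaled to a fixed library total, here with these factors) and the deposited FPKM (fragments scaled to transcript length and to library depth) differ in how far the groups lie apart. Values are given in the order WT replicates 1 and 2, then leptin overexpression replicates 1 and 2, as TMM-scaled CPM unless FPKM is named. Markers of other cells also differed between the libraries: 9 tested genes of oviduct and ciliated epithelium summed to 528 and 256 CPM in WT and to 44.7 and 35.0 in leptin overexpression, with FOXJ1 and SPAG6 at 0 counts in leptin overexpression replicate 1 and TEKT1 at 0 in replicate 2.

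The contractile genes were lower on balance in leptin overexpression, but not as a block. Their summed level was 3186 and 3286 CPM in WT, against 2285 and 3179 with leptin overexpression. By this sum only leptin overexpression replicate 1 was clearly low. In summed FPKM both leptin overexpression libraries were lower, at 1221 and 1526 against 2243 and 1837. The 4 genes with an unadjusted edgeR p under 0.05, MYH11, DES, KCNMB1 and PPP1R12B, were 2.99-fold to 5.47-fold lower by the fitted fold change. Other genes of the smooth muscle programme ranged from CNN1 (log2 fold change -1.35) through ACTA2 (-0.42) to PPP1R14A (0.29). MYL6, CALD1, TPM1 and ACTN1, which many other cells express too, had higher CPM than WT. By FPKM all of these but CALD1 had log2 fold changes just below 0. None of the 25 passed an adjusted p of 0.05 in edgeR's quasi-likelihood test over the 13937 genes tested, where 4 genes passed as higher (0.0287%) and 0 as lower (0%). At an unadjusted edgeR p under 0.05, 4 of 25 were lower (16%) and 0 higher; over all genes, 741 were lower (5.32%) and 563 higher (4.04%). Log2 fold changes, always leptin overexpression minus WT, were below 0 for 19 of 25, against 50.7% of all genes, with a median of -0.61 against -0.012. In 13 of 25 (52%) both leptin overexpression libraries lay below both WT libraries, as they did for 22.9% of all genes; 4 were higher without overlap, against 22.2%.

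**Figure D1:**
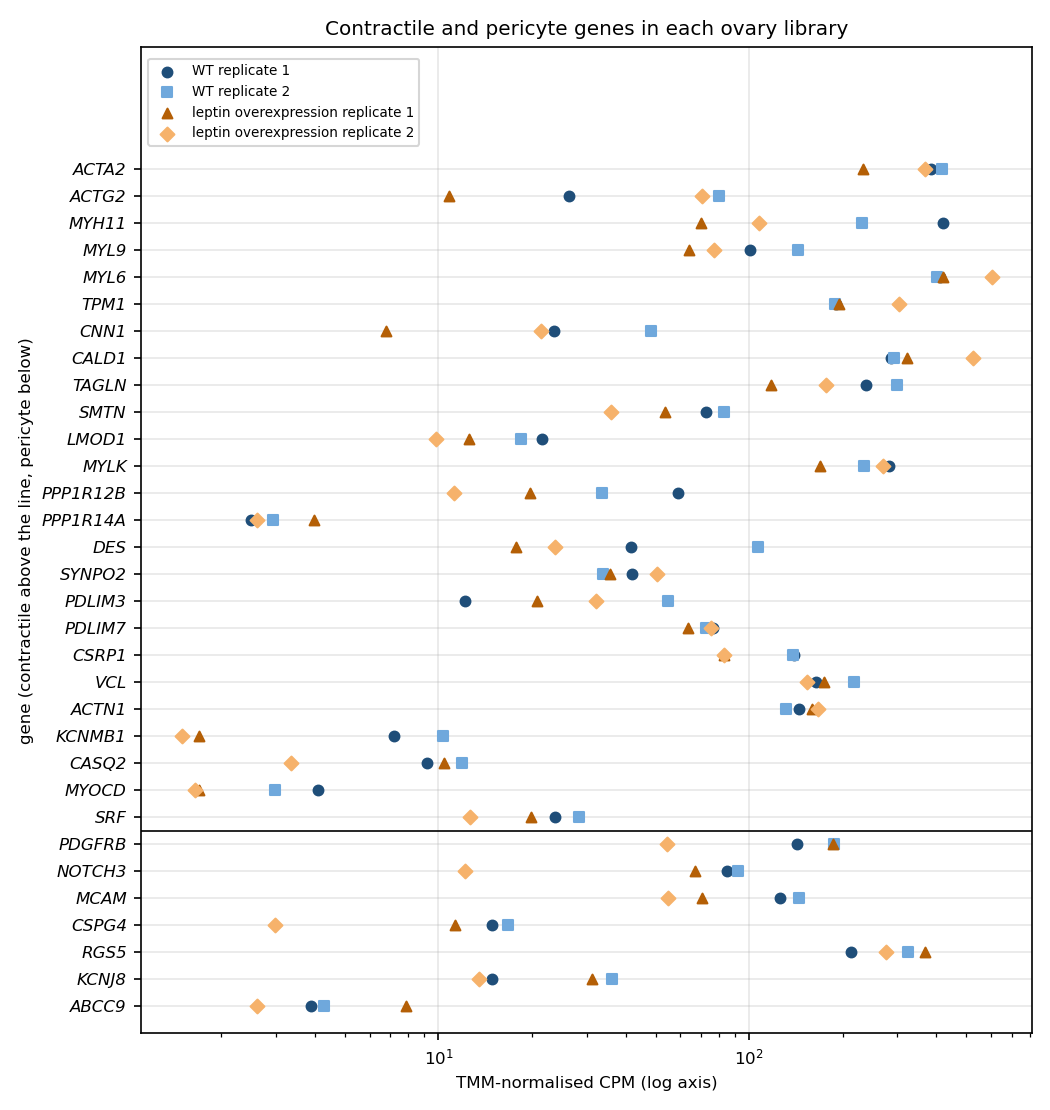
TMM-normalised CPM (log axis) of the 25 contractile genes and, under the line, the 7 pericyte genes; each symbol is 1 library, dark and light blue for WT replicates 1 and 2, dark and light orange for leptin overexpression replicates 1 and 2. MYH11, DES and KCNMB1 show both leptin overexpression libraries well below both WT libraries, while CALD1 and MYL6 do not, and for 6 of the 7 pericyte genes leptin overexpression replicate 2 is the lowest point.

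Among the filament proteins the heavy chain stood out. MYH11 (ENSSSCG00000000146), the smooth muscle myosin heavy chain, was at 421 and 231 CPM in WT, against 69.9 and 107 with leptin overexpression. The highest leptin overexpression library lay well below the lowest WT library, and the WT libraries also lay far from each other. Its log2 fold change was -1.88 (SE 0.48, edgeR adjusted p = 0.263). ACTA2 (ENSSSCG00000010447), smooth muscle alpha-actin, was at 385 and 418 CPM against 232 and 367. Only leptin overexpression replicate 1 was clearly low, and the log2 fold change of -0.42 (SE 0.44) had an edgeR adjusted p of 0.752. MYL9 (ENSSSCG00000036402), the regulatory light chain that the kinase phosphorylates, was at 101 and 144 CPM against 64.1 and 77.0 (log2 fold change -0.79, SE 0.38, edgeR adjusted p = 0.562). The groups did not overlap for MYL9, with less difference between replicates than MYH11 showed.

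ACTG2 (ENSSSCG00000008294), the gamma-actin of visceral smooth muscle, varied more within the groups than between them, at 26.3 and 80.0 CPM in WT, against 10.8 and 70.4 with leptin overexpression. In FPKM, which allows genes to be compared per length, the ratio of ACTG2 to ACTA2 within a library was 0.0701 and 0.204 in WT, against 0.0487 and 0.224 with leptin overexpression. One library of each group was thus poor in ACTG2 relative to ACTA2 and the other richer, irrespective of genotype. Actin genes are close copies of each other, and whether reads were divided between them was not tested. If they were, the levels of both are uncertain to that extent. The deposited counts of ACTA2 and ACTG2 were whole numbers in every library.

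MYL6 (ENSSSCG00000039506), the essential light chain shared by smooth muscle and non-muscle myosins, had the highest FPKM of the list, at 723 and 540 in WT, against 523 and 652 with leptin overexpression. The table gives this row the symbol MYL6 but describes it as light chain 6B, so it may hold reads of both genes. It made up 32.2% and 29.4% of the summed contractile FPKM in WT and 42.8% and 42.7% in leptin overexpression. In CPM it was at 412 and 402 against 419.5 and 602 (log2 fold change 0.33, SE 0.44, edgeR adjusted p = 0.81), a direction that turned on the FPKM scale (-0.097). TPM1 (ENSSSCG00000004570), a tropomyosin that lies along actin, was at 191 and 189 CPM against 194 and 303, with a log2 fold change of 0.39 (SE 0.42, edgeR adjusted p = 0.756) that was -0.10 on the FPKM scale. The second tropomyosin, TPM2 (ENSSSCG00000005316), one of the genes kept apart, was at 197 and 194 CPM against 129.7 and 225. The replicates of leptin overexpression thus lay on either side of WT for TPM2, and none of these 3 genes passed the test (edgeR adjusted p = 0.919 for TPM2).

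Of the 5 actin-binding regulators, 4 were lower without overlap of the groups, as were 22.9% of all genes, and CALD1 was the exception. TAGLN (ENSSSCG00000015073), transgelin, an early marker of smooth muscle, was at 238 and 299.7 CPM in WT, against 118 and 176 with leptin overexpression. Both WT libraries lay above both others; the log2 fold change was -0.87 (SE 0.42) with an edgeR adjusted p of 0.564. CNN1, calponin, which restrains the myosin motor, was at 23.5 and 48.3 CPM against 6.79 and 21.4, lowest in leptin overexpression replicate 1 (log2 fold change -1.35, SE 0.60, edgeR adjusted p = 0.539). SMTN (smoothelin) and LMOD1 (leiomodin, which nucleates actin filaments) had log2 fold changes of -0.79 and -0.84. CALD1 (ENSSSCG00000016535), caldesmon, was at 287 and 293 CPM against 322 and 523 (log2 fold change 0.54, SE 0.45, edgeR adjusted p = 0.68). It was the highest fold change among the contractile genes, carried mainly by leptin overexpression replicate 2.

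The enzymes that set light chain phosphorylation had fold changes in both directions. MYLK (ENSSSCG00000011867), the kinase, was at 281 and 233 CPM in WT, against 169 and 269 with leptin overexpression, with overlapping groups (log2 fold change -0.23, SE 0.43, edgeR adjusted p = 0.864). PPP1R12B (ENSSSCG00000010925), a myosin-targeting subunit of the opposing phosphatase, was at 58.8 and 33.7 CPM against 19.7 and 11.2. The groups did not overlap, and the log2 fold change was -1.58 (SE 0.46, edgeR adjusted p = 0.319). PPP1R12A, the more widely expressed subunit of the same kind, was at 41.5 and 35.1 against 41.7 and 63.6 CPM (log2 fold change 0.46, edgeR adjusted p = 0.68). The FPKM ratio of PPP1R12B to PPP1R12A was 0.949 and 0.647 in WT, against 0.317 and 0.118 with leptin overexpression. PPP1R14A, an inhibitor of the phosphatase, had only 35 to 61 counts per library, too few for a difference of this size to be resolved (log2 fold change 0.29, SE 0.66).

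Desmin led the intermediate filament, dense body and adhesion genes. DES (ENSSSCG00000020785), the muscle intermediate filament protein, was at 41.6 and 107 CPM in WT, against 17.8 and 23.8 with leptin overexpression. The leptin overexpression libraries were close to each other and below both WT libraries, which themselves differed (log2 fold change -1.84, SE 0.49, edgeR adjusted p = 0.273). SYNM, synemin, the partner of desmin in these filaments and one of the genes kept apart, had 35 and 28 counts against 13 and 9 (log2 fold change -1.09, SE 0.84, edgeR adjusted p = 0.668). CSRP1 (ENSSSCG00000020976), a LIM protein bound to actin bundles, was at 139.9 and 139 CPM in WT, against 82.7 and 82.8 with leptin overexpression. Its replicates were nearly equal in both groups, yet the log2 fold change of -0.75 (SE 0.36) had an edgeR adjusted p of 0.562. VCL (vinculin), PDLIM7, PDLIM3, SYNPO2 and ACTN1, which anchor actin at adhesions and dense bodies, had log2 fold changes from -0.34 to 0.24, and none had an unadjusted edgeR p under 0.05. PDLIM3 ran from 12.2 to 54.8 CPM within WT alone.

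KCNMB1 (ENSSSCG00000017005), the smooth muscle beta subunit that makes the large-conductance calcium-activated potassium channel more sensitive to calcium, had the lowest fold change of all 32 genes. Its counts were 159 and 173 in WT, against 26 and 20 with leptin overexpression, or 7.21 and 10.3 CPM against 1.70 and 1.49. The groups lay much farther apart than the replicates of either (log2 fold change -2.45, SE 0.58, edgeR adjusted p = 0.225). KCNMA1, which encodes the pore of this channel and was picked out after its value was seen, was lower without overlap of the groups (log2 fold change -1.25, SE 0.55, edgeR adjusted p = 0.533). CASQ2, a calcium-binding protein of the sarcoplasmic reticulum, was at 9.16 and 11.9 CPM in WT but at 10.4 and 3.36 in leptin overexpression, low in replicate 2 only.

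Both transcriptional activators were lower without overlap of the groups, as were 22.9% of all genes, and neither passed. MYOCD, myocardin, was the least abundant contractile gene per length, with 90 and 50 counts in WT, against 26 and 22 with leptin overexpression (edgeR adjusted p = 0.609, log2 fold change -1.08, SE 0.68). SRF, its DNA-binding partner, was at 23.7 and 28.4 CPM against 19.8 and 12.6 (log2 fold change -0.68, SE 0.41, edgeR adjusted p = 0.601). A wider list of smooth muscle and Notch transcription held 14 tested genes. Of these, 2 had an unadjusted edgeR p under 0.05, both lower (14.3%, against 5.32% of all genes), and 0 passed after adjustment. HEYL, a Notch target in mural cells, was at 25.8 and 42.2 CPM in WT, against 13.3 and 12.3 with leptin overexpression, and JAG1, a Notch ligand, at 82.5 and 95.6 against 56.8 and 28.1. MRTFA, the actin-sensing coactivator of SRF, was at 19.1 and 18.6 against 13.6 and 4.11 CPM and did not pass either (edgeR adjusted p = 0.573).

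**Figure D2:**
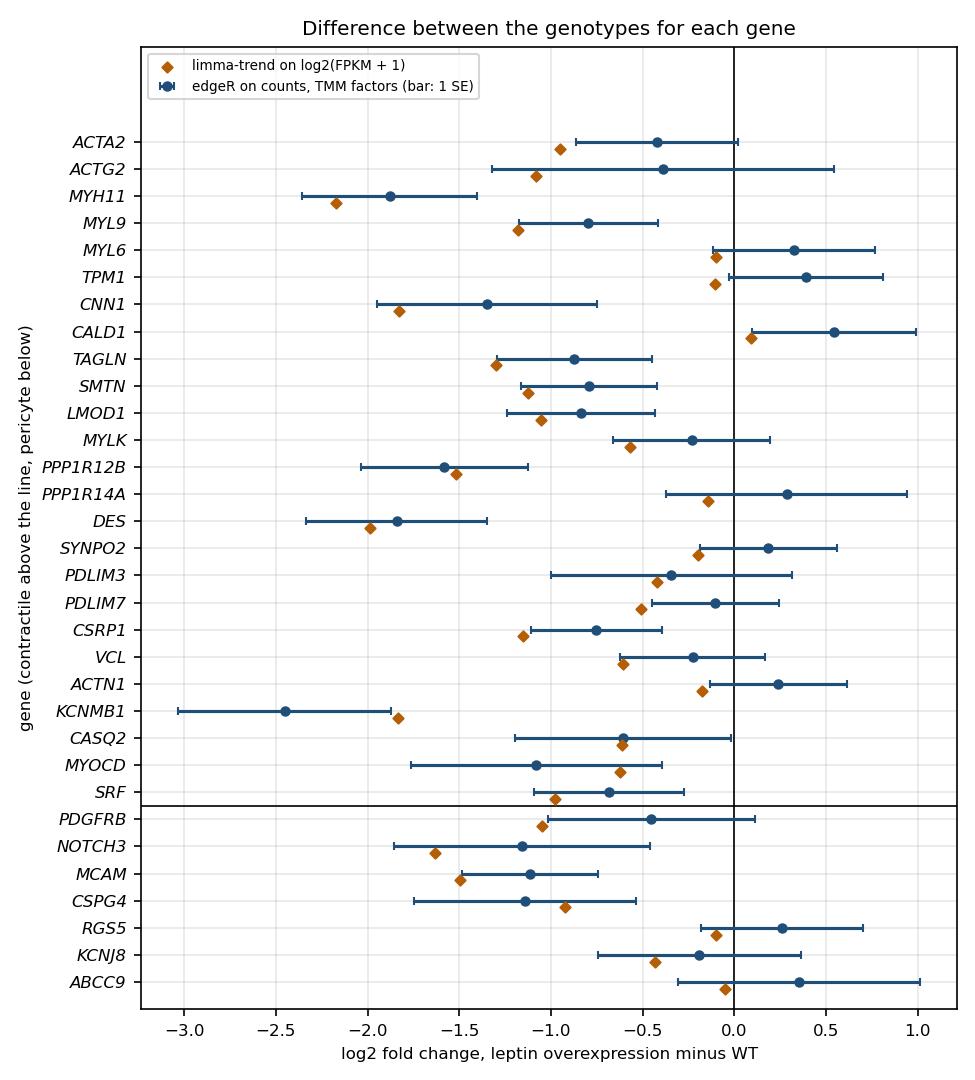
Log2 fold change (leptin overexpression minus WT) of each gene by edgeR on counts (circles, bars 1 SE) and by limma-trend on log2(FPKM + 1) (diamonds), contractile genes above the line and pericyte genes below. KCNMB1, MYH11, DES and PPP1R12B lie farthest to the left by edgeR, and the FPKM estimates lie to the left of the edgeR ones for most genes, as the median of all genes does on that scale (-0.30).

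The pericyte genes gave a different pattern, in which the 2 leptin overexpression libraries disagreed. In CPM, but not in FPKM, WT replicate 2 lay above WT replicate 1 for each gene. None of the 7 passed after adjustment, 5 had log2 fold changes below 0 (50.7% of all genes did), and the median was -0.45. In 3 of 7 (42.9%) both leptin overexpression libraries lay below both WT libraries, against 22.9% of all genes. In FPKM it was 4 of 7 (57.1%, against 39.7%). At an unadjusted edgeR p under 0.05, 1 of 7 was lower (14.3%, against 5.32%). These shares were not far from those of the contractile genes. MCAM (ENSSSCG00000015116), an adhesion molecule of mural and endothelial cells, was at 126 and 145 CPM in WT, against 70.6 and 54.6 with leptin overexpression. It was the one pericyte gene low in both leptin overexpression libraries to a like degree (log2 fold change -1.11, SE 0.37, edgeR adjusted p = 0.393). NOTCH3 (ENSSSCG00000025176), the Notch receptor of arterial mural cells, was at 84.6 and 92.1 CPM against 66.9 and 12.2. CSPG4 (ENSSSCG00000001873), the proteoglycan NG2, was at 14.8 and 16.8 against 11.3 and 2.99 CPM. For both, leptin overexpression replicate 1 lay not far under WT and replicate 2 far under it; log2 fold changes were -1.16 (SE 0.70) and -1.14 (SE 0.61), with edgeR adjusted p of 0.607 and 0.578.

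PDGFRB (ENSSSCG00000022741), the receptor by which endothelial PDGF-B recruits pericytes, was at 142 and 187 CPM in WT, against 186 and 54.2 with leptin overexpression. Replicate 1 thus matched the higher WT library, and replicate 2 was the lowest of the 4 (log2 fold change -0.45, SE 0.56, edgeR adjusted p = 0.792). RGS5 (ENSSSCG00000037821), a brake on G protein signalling and the most abundant pericyte gene per length, was at 212 and 325 against 368 and 276 CPM, with overlapping groups (log2 fold change 0.26, SE 0.44, edgeR adjusted p = 0.85; -0.098 on the FPKM scale). KCNJ8 (ENSSSCG00000000573), the pore of the ATP-sensitive potassium channel of mural cells, was at 14.9 and 36.2 against 31.1 and 13.5 CPM. ABCC9 (ENSSSCG00000000571), its sulfonylurea receptor subunit, was at 3.90 and 4.30 against 7.83 and 2.61. Both channel genes were lower in replicate 2 than in replicate 1 of leptin overexpression, with overlapping groups (edgeR adjusted p = 0.917 and 0.865).

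In all, 7 of 7 pericyte genes were lower in leptin overexpression replicate 2 than in replicate 1, against 48.8% of all genes, with a median log2 difference of -1.58 between these libraries. For the contractile genes 9 of 25 were lower in replicate 2, and the median was 0.26. The same step was seen in the endothelial list, where 15 of 15 genes were lower in replicate 2 (median -1.19). Its summed level went from 1391 to 664 CPM there, and was 1078 and 1986 in WT. The WT libraries also differed in CPM. Between them 0 of 7 pericyte and 0 of 15 endothelial genes were lower in replicate 2, against 51.2% of all genes. The median log2 differences were 0.21 and 0.74. For the pericyte genes this depended on the scaling. In FPKM, PDGFRB, NOTCH3, MCAM, CSPG4 and ABCC9 were lower in WT replicate 2, while RGS5 and KCNJ8 were higher. The summed pericyte FPKM was 190 and 193 in WT replicates 1 and 2. Of the endothelial genes, PECAM1 and EMCN were lower in WT replicate 2 by FPKM. PECAM1, an endothelial adhesion molecule, was at 232 and 289.8 CPM in WT, against 196 and 138 with leptin overexpression, and KDR, the main VEGF receptor, at 128 and 315 against 242 and 85.8. Between the genotypes 14 of 15 endothelial genes had log2 fold changes below 0 (50.7% of all genes did), with a median of -0.47. None of the 15 had an unadjusted edgeR p under 0.05. On the log2(FPKM + 1) scale 15 of 15 were below 0, with a median of -0.93 against the -0.30 of all genes. Both leptin overexpression libraries lay below both WT libraries for 13.3% in CPM (22.9% of all genes) and 60% in FPKM (39.7%). The part of the endothelial difference in the pericyte result was not tested.

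Set against each other, the contractile and pericyte genes did not differ between genotypes in a way that held across libraries. The contractile median was lower than the pericyte median by 0.16 on the log2 fold change scale (difference -0.16). Without leptin overexpression replicate 1 the pericyte median was -1.31 and the difference 0.70; without leptin overexpression replicate 2 the pericyte median was 0.18 and the difference -0.85. The contractile median was -0.61 and -0.67 in these fits, and -0.80 and -0.43 without WT replicate 1 and 2. Within single libraries, the summed contractile FPKM was 11.8 and 9.51 times the summed pericyte FPKM in WT, 7.54 times in leptin overexpression replicate 1 and 16.6 times in replicate 2. WT lay between the leptin overexpression libraries, which stood at the extremes.

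The lowest library was not the same for all contractile genes. In leptin overexpression replicate 1 lay the lowest value of 10 genes, namely ACTA2, ACTG2, MYH11, TAGLN, CNN1, DES, MYLK, MYL9, PDLIM7 and CSRP1 (40%, against 15.2% of all genes). In replicate 2 lay that of 8, namely KCNMB1, MYOCD, SRF, PPP1R12B, SMTN, LMOD1, CASQ2 and VCL (32%), a share near the 34.2% of all genes. WT held the lowest value of the other 7, among them CALD1, MYL6, TPM1 and ACTN1.

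**Figure D3:**
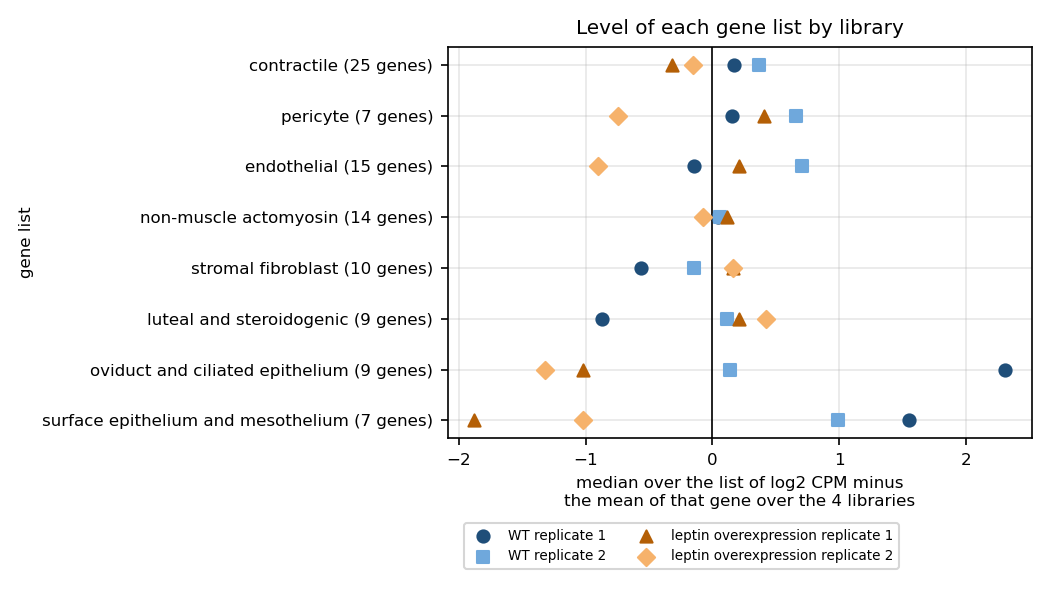
Median over each gene list of log2 CPM minus the mean of that gene over the 4 libraries (x axis, log2 units, 0.5 CPM added), 1 symbol per library. For contractile genes both leptin overexpression libraries lie below both WT libraries (-0.32 and -0.15 against 0.17 and 0.37). For pericyte and endothelial genes leptin overexpression replicate 2 is lowest (-0.74 and -0.90) and WT replicate 2 highest (0.66 and 0.71). The epithelial lists separate the genotypes most widely.

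Relatives of the contractile proteins that most cells express were divided in direction in CPM and mostly lower in FPKM. Of 14 tested non-muscle actomyosin genes 6 were lower and 8 higher, 0 had an unadjusted edgeR p under 0.05, and the median log2 fold change was 0.027; the most abundant, ACTG1 and VIM, had log2 fold changes of 0.033 and 0.076. On the log2(FPKM + 1) scale 12 of the 14 were below 0, with a median of -0.41 against the -0.30 of all genes, and 8 of 14 (57.1%) were lower without overlap, against 39.7% of all genes, so the direction of this list depended on the scaling. Family members were then paired, after the values of the contractile genes had been seen, and their FPKM ratios taken within each library. MYH9, the non-muscle heavy chain, lies in 2 rows of the table: an assembled locus with the symbol MYH9, described as partial, and an annotated gene without a symbol. Counts and FPKM together imply lengths of 1.33 and 1.38 kb for these rows in WT replicate 1, against 6.61 kb for MYH11, so each may hold part of the transcript and the size of the ratio is uncertain. MYH11 stood at 1.68 and 0.634 times the assembled row in WT, against 0.207 and 0.427 with leptin overexpression, and at 1.32 and 0.712 against 0.166 and 0.419 times the annotated row. MYL9 to MYL12A was 0.46 and 0.556 against 0.225 and 0.214, and CNN1 to CNN3 0.172 and 0.182 against 0.0215 and 0.059. In these 3 pairs, and for PPP1R12B to PPP1R12A above, both WT ratios exceeded both leptin overexpression ratios. The ratio of ACTA2 to ACTB did not separate the groups, at 0.328 and 0.32 against 0.214 and 0.391, and ACTN1 to ACTN4 was higher in leptin overexpression (0.816 and 0.541 against 0.869 and 1.78). With 2 samples against 2, an exact two-sided permutation test cannot give a p under 0.333, so these ratios are descriptions.

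**Figure D4:**
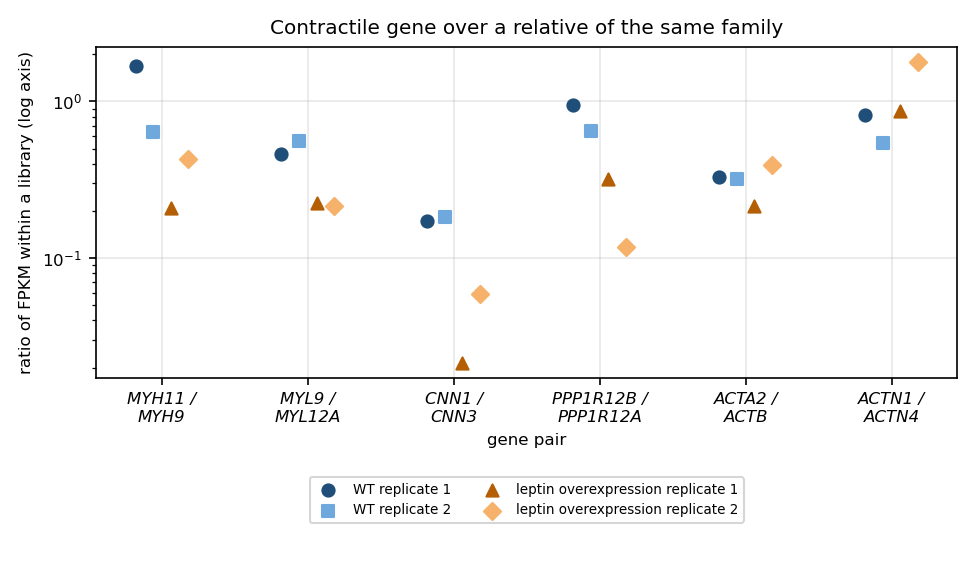
Ratio of FPKM within each library (log axis) for 6 pairs of related genes, 1 symbol per library. Both leptin overexpression libraries lie below both WT libraries for MYH11 over MYH9 (the assembled row), MYL9 over MYL12A, CNN1 over CNN3 and PPP1R12B over PPP1R12A, but not for ACTA2 over ACTB or ACTN1 over ACTN4.

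Genes that signal to the contractile apparatus were divided in direction in CPM and mostly lower in FPKM. The 24 tested genes included genes of calcium entry and release, cyclic GMP and the membrane anchor. Of these, 15 were lower and 9 higher, 0 had an unadjusted edgeR p under 0.05, and the median log2 fold change was -0.22. On the log2(FPKM + 1) scale 17 were below 0, with a median of -0.41 against the -0.30 of all genes. In FPKM 14 of 24 (58.3%) were lower without overlap, against 39.7% of all genes. PPP1CB, the catalytic subunit of the myosin phosphatase, was at 324 and 215 CPM in WT, against 271 and 552 with leptin overexpression. No difference beyond the spread between replicates was found for it (edgeR adjusted p = 0.678).

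Epithelial markers were also lower on balance in leptin overexpression, and their part in the contractile result was not tested. The walls of the oviduct hold smooth muscle, and OVGP1, the oviductal glycoprotein, and KRT8, an epithelial keratin, had lower values in leptin overexpression (log2 fold changes -8.66 and -3.50, edgeR adjusted p = 0.0919 and 0.0921). The summed level of the 7 tested surface epithelium and mesothelium genes was 201 and 115 CPM in WT, against 24.5 and 86.4 with leptin overexpression. EPCAM, an epithelial adhesion molecule named after its values were seen, went the other way from the rest in CPM (log2 fold change 0.52), at 33.8 and 7.76 CPM in WT, against 2.55 and 57.1 with leptin overexpression, and without it the list summed to 167 and 108 against 21.9 and 29.3 CPM. WFDC2, CDH1 and KRT18 of the same list had log2 fold changes of -4.23, -4.58 and -4.62 (edgeR adjusted p = 0.134, 0.218 and 0.266). Between the WT libraries the oviduct list summed to 528 and 256 CPM. In CPM, 11 of 25 contractile genes were lower in WT replicate 2, against 51.2% of all genes, with a median log2 difference of 0.12. Between the leptin overexpression libraries the oviduct list summed to 44.7 and 35.0 CPM, and the contractile median log2 difference was 0.26. WT replicate 1 had more of the oviduct markers. The largest falls in CPM from WT replicate 1 to WT replicate 2 were those of MYH11 and PPP1R12B. The largest rises were those of DES, CNN1, ACTG2 and PDLIM3. In FPKM all contractile genes but ACTG2, CNN1, DES, MYL9, PDLIM3 and KCNMB1 were lower in WT replicate 2. The summed contractile FPKM was 2243 and 1837 in WT replicates 1 and 2. Fibroblast genes had log2 fold changes above 0 for 8 of 10 in CPM (median 0.28) but for 3 of 10 on the log2(FPKM + 1) scale (median -0.10), with COL3A1 at 3652 and 4568 against 8659 and 4989 CPM and COL1A2 at 1380.1 and 850.0 against 1371 and 1295. Of 9 luteal and steroidogenic genes 6 were above 0 in CPM (median 0.086) and 4 on the FPKM scale (median -0.12), with STAR at 0.86 and CYP11A1 at 0.076. These medians hide a difference within WT. The luteal list summed to 15006 and 36518 CPM in WT, against 34294 and 38122 with leptin overexpression, so WT replicate 1 stood apart.

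How many contractile genes passed a test depended on the count model, the scale and the filter on low counts. None passed in edgeR with TMM, RLE or upper-quartile factors, with a filter of 1 CPM in 2 libraries, or with the replicate number as a block. By limma-voom none passed either. DESeq2 called 3 of 25, all lower, against 1.47% of all genes called lower: MYH11 (adjusted p = 0.006), KCNMB1 (0.0127) and DES (0.0316). Without a filter edgeR called the same 3 as lower, against 0.939% of all genes (edgeR adjusted p = 0.0274, 0.0406 and 0.0188 in the same order). Without WT replicate 1 it called DES and KCNMB1 (edgeR adjusted p = 0.00797 and 0.0442), against 0.646% of all genes called lower, and without WT replicate 2 MYH11 and PPP1R12B (edgeR adjusted p = 0.00208 and 0.0362), against 2.61%. Limma-trend on log2(FPKM + 1) called 4, MYH11, DES, CNN1 and KCNMB1, and the pericyte genes NOTCH3 and MCAM (adjusted p = 0.026 and 0.0244), against 2.68% of all genes called lower, and on log2(FPKM + 0.1) PPP1R12B as well (adjusted p = 0.0478), against 2.86%. On log2(FPKM + 1), 24 of 25 contractile and 7 of 7 pericyte genes were below 0, and the median of all genes was shifted to -0.30. Relative to that shift, the contractile median was -0.66, close to the -0.60 of edgeR. In FPKM 16 of 25 contractile genes were lower without overlap (64%), against 39.7% of all genes. At an unadjusted p under 0.05, 9 contractile genes were lower with upper-quartile scaling factors, against 6.31% of all genes, and 13 on either FPKM scale, against 12.5% and 12.8% of all genes. MYH11, DES and KCNMB1 kept log2 fold changes of -1.05 or lower in each of the 13 alternatives, including each library left out.

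**Figure D5:**
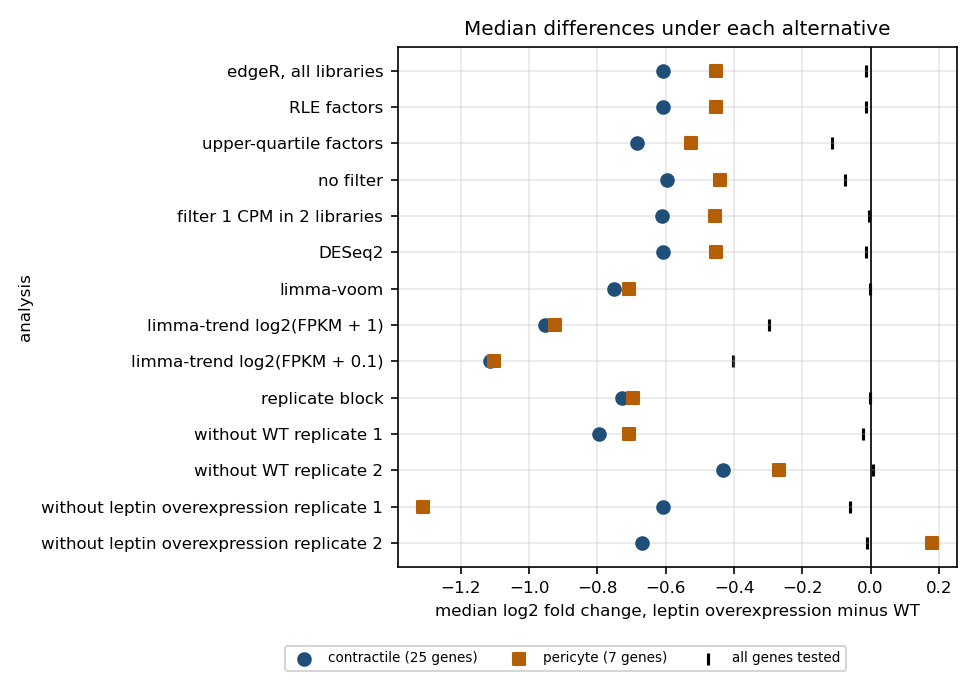
Median log2 fold change (leptin overexpression minus WT) of the 25 contractile genes (circles), the 7 pericyte genes (squares) and all genes tested (ticks) in edgeR with all libraries and in each of the 13 alternatives. The contractile median stays between -1.11 and -0.43, while the pericyte median runs from -1.31 without leptin overexpression replicate 1 to 0.18 without replicate 2.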

How the data were processed

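RNA was poly(A)-enriched and made into libraries with the NEBNext Ultra kit, per the labels' protocols. The submitters' processing notes list, without roles, RSEM, StringTie 1.3.1, HISAT2, Bowtie2 2.2.8, fastp 0.18.0, edgeR 3.32.0 and DESeq2; genome build and strand setting are not given in the sources used here; coordinates were therefore left out. The deposited expected counts are estimated counts per gene, unscaled; the FPKM values were made by the authors, per the file headers. Columns named for controls were matched to WT samples by number. Of the members, 7 had counts that were not whole (MYH11, LMOD1, PDLIM3, CASQ2, VCL, KCNJ8, ABCC9), as estimation gives where reads are shared.

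Expected counts were rounded, filtered with filterByExpr (13937 of 22309 genes kept), TMM-scaled and compared in R 4.3.3 with the quasi-likelihood test of edgeR 4.0.16 (limma 3.58.1; robust, no covariates, 2 residual degrees of freedom), adjusted by Benjamini-Hochberg over all genes, threshold 0.05. SE was approximated from the fold change and the F statistic (absolute log2 value over root F). The procedure was tested on simulated data. Alternatives tried were leaving out each library, the replicate number as a block, limma-trend on log2(FPKM + 1) or log2(FPKM + 0.1), limma-voom, DESeq2 1.42.0, a filter of 1 CPM in 2 libraries or none, and scaling by upper-quartile or RLE factors.

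Members and the 11 gene lists were chosen with earlier results of these data known. Values in each library are printed for members with an unadjusted p under 0.05, all pericyte genes and the 8 contractile genes highest in FPKM; other members were named for their role. Of other lists, up to 4 genes with the lowest p under 0.05, or the 2 highest in CPM, follow the rule, except that 1 is not reported here; CNN3, MYH9, MYL12A, ACTB, ACTN4, PPP1R12A, KCNMA1, MRTFA and EPCAM were named after their values were seen.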

Additional observations from a re-analysis of the deposited data

How the results depend on the processing

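The low counts of MYOCD, PPP1R14A and SYNM limit their precision. Genes called were 4 (4 higher, 0 lower) by edgeR, 11 with upper-quartile factors (7 and 4), 252 without a filter (84 and 168), 305 by DESeq2 (100 and 205), 1 by limma-voom, 464 and 487 by limma-trend on log2(FPKM + 1) and log2(FPKM + 0.1), and 0 to 603 with a library left out; such a fit takes its spread from the other group, whose variation the lone sample is assumed to share. Contractile genes lower at an unadjusted p under 0.05 were 4, against 5.32% of all genes, 9 with upper-quartile factors, against 6.31%, and 13 on either FPKM scale, against 12.5% and 12.8%. The contractile median was -0.75 by limma-voom, -0.95 and -1.11 on the FPKM scales, and -0.80 to -0.43 with a library left out. The pericyte median was -1.10 on log2(FPKM + 0.1) and -1.31 to 0.18 with a library left out, and the contractile minus pericyte difference -0.85 to 0.70. Upper-quartile factors shifted the median of all genes to -0.11, and the FPKM scales to -0.30 and -0.40.

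Of the 34 genes (TPM2 and SYNM included), 20 kept their direction in every alternative run. Directions turned on log2(FPKM + 1) and log2(FPKM + 0.1) for MYL6 (-0.097 and -0.098), SYNPO2 (-0.20 and -0.22), TPM1 (-0.10 and -0.10), PPP1R14A (-0.14 and -0.17), ACTN1 (-0.17 and -0.18), RGS5 (-0.098 and -0.099) and ABCC9 (-0.050 and -0.21), and by limma-voom for PDLIM3 (0.021). With a library left out the ranges crossed 0 for ACTG2 (-2.30 to 0.57), PDLIM3 (-1.08 to 1.07), KCNJ8 (-0.91 to 0.56), ABCC9 (-0.65 to 0.93), PDGFRB (-1.60 to 0.18), MYLK (-0.60 to 0.063), TPM2 (-0.59 to 0.20), PDLIM7 (-0.23 to 0.014), RGS5 (-0.031 to 0.57), SYNPO2 (-0.089 to 0.42) and PPP1R14A (-0.050 to 0.56). The cause was not tested.

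The replicate numbers pair nothing by the labels, and deviations of same-numbered libraries correlated at -0.0995 over genes. With the number as a block, 23 genes passed (11 higher, 12 lower), none of them contractile or pericyte.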

Other observations

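Of the striated muscle list, 10 genes had a row and 4 had counts enough to be tested; ACTA1 was at 0 counts in every library. TNNI3, the cardiac inhibitory troponin, was at 6.12 and 2.80 CPM in WT, against 0.849 and 0.822 with leptin overexpression (edgeR adjusted p = 0.366, log2 fold change -2.41, SE 0.76), while CKM, muscle creatine kinase, was at 2.77 and 3.82 against 6.20 and 6.13 CPM (edgeR adjusted p = 0.607). Summed over the 10 genes, the level was 13.6 and 12.9 CPM with WT, and 12.2 and 14.9 with leptin overexpression.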
